A study of Mus musculus with 24 samples.

Results

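The Sgce, Peg10 and Casd1 locus of mouse chromosome 6 was described here through 10 genes, out of 19937 genes measured on the arrays. The genes were Calcr, Tfpi2, Casd1, Sgce, Peg10, Ppp1r9a, Pon1, Pon3, Pon2 and Asb4, in the order in which they lie on the chromosome. A gene was included where a probe set carried its symbol alone, and its probe set was chosen by the highest mean signal over all 24 arrays. Each of the 10 genes had 1 such probe set, so the signal decided nothing within the locus. The samples were hindlimb buds of 12 Nipbl+/- and 12 wild type mouse embryos at E10.5, stage-matched littermates of the RRS strain, with the left and right buds of an embryo on 1 Affymetrix Mouse Gene 1.0 ST array. Nipbl+/- embryos carried a single working copy of Nipbl, which encodes the protein that loads the cohesin ring onto chromosomes, and wild type embryos carried both. The loss is present in every cell of the embryo, so a difference in the limb bud need not arise there.

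The locus is an imprinted domain, a stretch of chromosome in which the copies inherited from the mother and the father are not used equally. Sgce and Peg10 lie head to head around a shared promoter region whose DNA is methylated on the maternal copy, and both are expressed from the paternal copy. Asb4 is expressed from the maternal copy in the embryo, Calcr in the brain, and Tfpi2, Casd1, Ppp1r9a, Pon2 and Pon3 have been described as imprinted mainly in extraembryonic tissues, while Pon1 was taken as not imprinted. The arrays did not separate the parental copies, and a bulk limb bud cannot tell more RNA per cell from more cells that express a gene.

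Casd1, Sgce and Ppp1r9a were raised in the hindlimb buds of Nipbl+/- embryos, by 22.8%, 26.3% and 29.7% over the geometric mean signal of wild type embryos. The other 7 genes did not pass the test. Genotypes were compared with limma on the log2 intensities, with the adjusted p taken over all 19937 genes and called under 0.05. Of the 10 genes, 3 were called higher and 0 lower, and Peg10, Asb4 and Pon2 also had an unadjusted p under 0.05 by limma, which makes 5 with a positive and 1 with a negative difference at that level, where 4.13% of all genes were positive and 5.14% negative, 9.26% together. With the interquartile range of each array as a covariate, an alternative added after seeing the data, 5 were called, Peg10 and Pon2 being added, and 2.44% of all genes. Among all genes in the fit without it, 0.286% were called higher and 0.527% lower, 0.813% in both directions together. The median log2 difference of the 10 genes was 0.033, against -0.0049 over all genes.

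Sgce encodes epsilon-sarcoglycan, a membrane protein of the dystrophin-associated family. Its log2 intensity ran from 10.42 to 10.75 in Nipbl+/- embryos, with a median of 10.68, and from 10.18 to 10.43 in wild type embryos, with a median of 10.33. The genotypes met only at Nipbl+/- replicate 2, which at 10.42 lay just below the highest wild type embryo, replicate 4, at 10.43. Every one of the 12 mutant embryos lay above the wild type mean. The means were 10.66 ± 0.089 in Nipbl+/- and 10.32 ± 0.075 in wild type embryos (SD, n = 12 each), a log2 difference of 0.34 (standard error 0.037, 95% interval 0.26 to 0.41, adjusted p = 6.93e-06 from limma). By its p-value Sgce ranked 3 among all genes.

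Casd1 encodes the enzyme that adds acetyl groups to sialic acid, a sugar at the ends of glycan chains. In Nipbl+/- embryos it ran from 11.64 to 11.88, with a median of 11.76, and in wild type embryos from 11.34 to 11.56, with a median of 11.46. The genotypes did not overlap. Of all genes, 0.015% were higher in Nipbl+/- embryos without overlap, which were the 3 genes Casd1, Ppp1r9a and Pfkl, and 0.0401% were lower without overlap. The means of Casd1 were 11.76 ± 0.079 in Nipbl+/- and 11.46 ± 0.062 in wild type embryos (SD, n = 12 each), and the log2 difference was 0.30 (standard error 0.034, 95% interval 0.23 to 0.37, adjusted p = 9.02e-06 from limma).

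Ppp1r9a encodes neurabin-I, a scaffold that binds actin filaments and protein phosphatase. It had the largest rise of the 10 genes and the 7th largest log2 difference upward of all genes. In Nipbl+/- embryos it ran from 8.81 to 9.13, with a median of 8.94, and in wild type embryos from 8.31 to 8.71, with a median of 8.64. The genotypes did not overlap, and the wild type embryos were spread over the wider range, with replicates 5, 6 and 3 lowest. The means were 8.95 ± 0.081 in Nipbl+/- and 8.57 ± 0.14 in wild type embryos (SD, n = 12 each), a log2 difference of 0.38 (standard error 0.048, 95% interval 0.28 to 0.47, adjusted p = 4.62e-05 from limma).

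**Figure D1:**
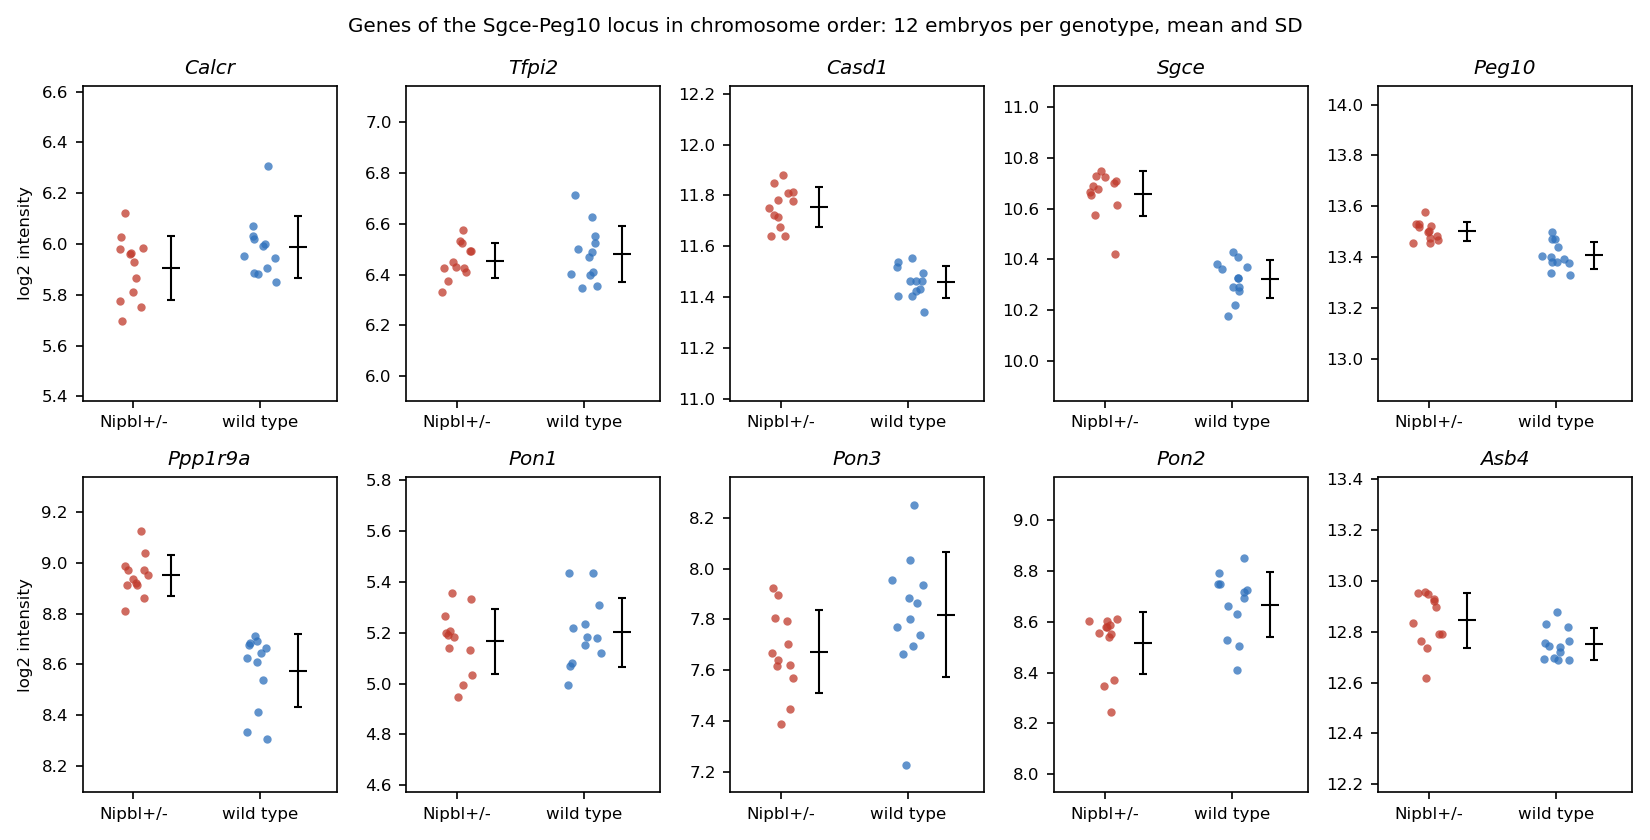
Log2 intensity of the 10 genes in each of 12 Nipbl+/- (red) and 12 wild type (blue) embryos, 1 point per embryo. Black marks show the mean with its SD, and every vertical axis spans the same log2 range. Casd1 and Ppp1r9a separate the genotypes without overlap, Sgce does so but for Nipbl+/- replicate 2 at 10.42, and the remaining genes overlap.

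Peg10, which derives from the gag and pol genes of a retrotransposon and is required in the placenta, differed far less than Sgce. It ran from 13.45 to 13.58 in Nipbl+/- embryos, with a median of 13.50, and from 13.33 to 13.50 in wild type embryos, with a median of 13.40. All 12 mutant embryos lay above the wild type mean, but wild type replicates 1, 4 and 7 lay within the range of the mutant embryos. The log2 difference was 0.094 (standard error 0.028, 95% interval 0.038 to 0.15), a ratio of 1.07, and did not pass the threshold (adjusted p = 0.130 from limma). Its adjusted p from limma was 0.00900 where the prior variance was trended and robust, and that of the t statistic on linear values was 0.0151, so both of these settings called it, with 0.968% and 0.808% of all genes called. The signal of Peg10 lay near the top of the scale, since the brightest gene of an array reached 14.05 to 14.19, and what this does to its difference was not tested.

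Asb4, which encodes an ankyrin repeat protein of ubiquitin ligase complexes, ran from 12.62 to 12.96 in Nipbl+/- embryos, with a median of 12.86, and from 12.69 to 12.88 in wild type embryos, with a median of 12.74. The genotypes overlapped, and Nipbl+/- replicate 2 was the lowest embryo of all. The log2 difference was 0.093 (standard error 0.039, 95% interval 0.013 to 0.17), which did not pass (adjusted p = 0.406 from limma). The mean of the wild type embryos was exceeded in 10 of the 12 mutant ones.

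The 3 paraoxonase genes encode enzymes that hydrolyse lactones and organophosphates, and none passed the test. Pon2 ran from 8.25 to 8.61 in Nipbl+/- embryos, with a median of 8.57, and from 8.41 to 8.85 in wild type embryos, with a median of 8.70. The mutant embryos sat at the low end, all 12 being under the mean of the wild type, and the log2 difference was -0.15 (standard error 0.051, 95% interval -0.26 to -0.048, adjusted p = 0.221 from limma). Pon3 ran from 7.39 to 7.92 in Nipbl+/- and from 7.23 to 8.25 in wild type embryos. Wild type replicate 3 was its lowest embryo, and the log2 difference was -0.15 (standard error 0.080, adjusted p = 0.624 from limma). Pon1 averaged 5.17 ± 0.13 in Nipbl+/- and 5.20 ± 0.14 in wild type embryos (SD, n = 12 each), a log2 difference of -0.036 (standard error 0.053, adjusted p = 0.941 from limma).

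Of the remaining genes at the other end of the locus, Calcr encodes the calcitonin receptor and Tfpi2 a Kunitz-type inhibitor of serine proteases. Calcr ran from 5.70 to 6.12 in Nipbl+/- and from 5.85 to 6.31 in wild type embryos, a log2 difference of -0.081 (standard error 0.050, adjusted p = 0.694 from limma). Tfpi2 ran from 6.33 to 6.58 in Nipbl+/- and from 6.35 to 6.71 in wild type embryos, a log2 difference of -0.027 (standard error 0.040, adjusted p = 0.941 from limma). The genotypes overlapped in both. The mean signals of Pon1, Calcr and Tfpi2 were the dimmest of the locus, at percentiles 14.6, 24.2 and 32.7 of all probe sets used.

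The genotype difference was not the same in all consecutive genes of the locus. The log2 intensity of each of the 10 genes minus that of the one before it among them was compared between genotypes, for all 9 such pairs, by permutation of the embryos (two-sided, 100000 resamples, adjusted over the 9 pairs). Other measured genes lie between Calcr and Tfpi2 and between Tfpi2 and Casd1. These comparisons were chosen after the differences of the single genes had been seen. They use the same values as those differences, so a pair that passed is no separate support for the single-gene calls. Of the 9 pairs, 5 passed. The change of Peg10 was lower than that of Sgce by a log2 value of -0.24 (standard error 0.039, adjusted p = 9.00e-05), that of Ppp1r9a exceeded that of Peg10 by 0.28 (standard error 0.047, adjusted p = 3.00e-05), and that of Pon1 was lower than that of Ppp1r9a by -0.41 (standard error 0.080, adjusted p = 3.00e-05). Casd1 exceeded Tfpi2 by 0.32 (standard error 0.045, adjusted p = 3.00e-05), and Asb4 exceeded Pon2 by 0.25 (standard error 0.059, adjusted p = 0.00140). An unadjusted p of 1.00e-05, the smallest these permutations can give, lay behind the adjusted value of 3.00e-05. Sgce and Casd1 did not pass, with a difference of 0.040 (standard error 0.045, adjusted p = 0.418), nor did Calcr and Tfpi2, Pon1 and Pon3, or Pon3 and Pon2. The sizes that involve Peg10, near the top of the scale, and Pon1 or Tfpi2, at a dim signal, are differences of array signal, and how far the signal follows the RNA at these levels was not tested.

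Called genes were found both among those imprinted in the embryo and among the others. Among Sgce, Peg10 and Asb4, which are imprinted in the embryo, 1 of 3 was called and the log2 differences ran from 0.093 to 0.34, with a median of 0.094. Among the other 7 genes, 2 were called and the differences ran from -0.15 to 0.38, with a median of -0.036. The medians lay 0.13 apart, and this difference between 3 and 7 chosen genes was not tested. Over all genes 0.813% were called, and the locus genes were chosen with earlier results of these data known. Within the class of the paternally expressed pair, Sgce and Peg10 differed from each other as given above.

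No flanking gene was called in the fit, in which 0.813% of all genes were called. A count of 0 among 21 genes lies near that share, so it does not set the flanking genes apart. The flanking genes comprised the 6 measured genes that lie between members of the locus, the 3 measured between the start of the chromosome and Calcr, and the 12 after Asb4. Some were dim, among them Mir489, Mir653 and Samd9l at percentiles 1.3, 2.4 and 4.8 of all genes. Of these 21 genes, 0 passed limma over all genes, while 2 with a positive and 1 with a negative difference had an unadjusted p under 0.05, which 9.26% of all genes had, and their log2 differences had a median of 0.019 and ran from -0.28 to 0.16. The lowest was Col1a2, a chain of type I collagen and the measured gene next to Casd1, which ran from 8.80 to 9.64 in Nipbl+/- and from 9.05 to 9.91 in wild type embryos (log2 difference -0.28 with a standard error of 0.099, adjusted p = 0.265 from limma). It was called with a replicate block (adjusted p = 0.0140 from limma). The 2 with a positive difference were Vps50, a subunit of an endosomal tethering complex (log2 difference 0.16 with a standard error of 0.058, adjusted p = 0.304 from limma), and Slc25a13, a mitochondrial aspartate and glutamate carrier (log2 difference 0.11 with a standard error of 0.052, adjusted p = 0.526 from limma). Farther along, the homeobox genes Dlx6 and Dlx5, which pattern limbs and craniofacial bones, had log2 differences of 0.055 and -0.10 (adjusted p = 0.825 and 0.615 from limma).

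**Figure D2:**
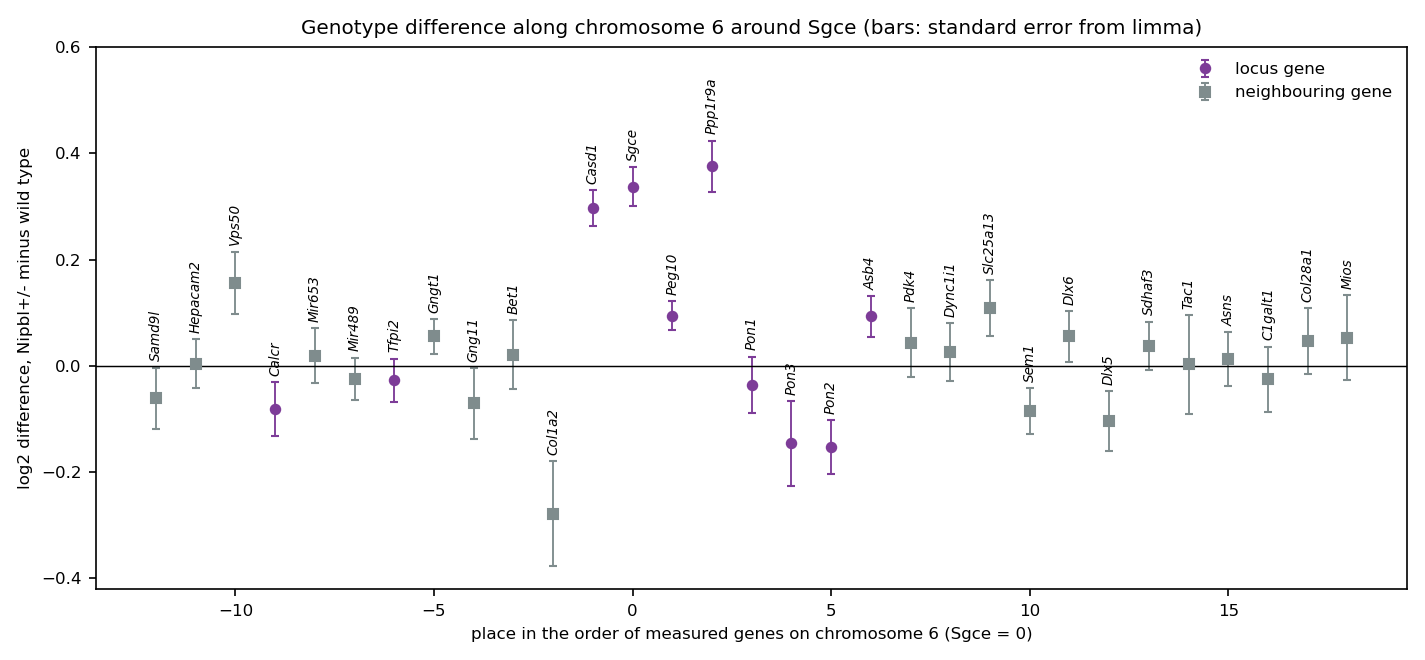
Log2 difference, Nipbl+/- minus wild type, of the 10 locus genes (purple circles) and 21 neighbouring genes (grey squares) against their order on chromosome 6, where bars are standard errors of the limma fit. Casd1, Sgce and Ppp1r9a stand at 0.30, 0.34 and 0.38, with Peg10 between Sgce and Ppp1r9a at 0.094 and Col1a2 beside Casd1 at -0.28.

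RefSeq start-site windows (GRCm38.p6), from 250 bases before to 50 bases after a start site, were listed for 8 of the 10 genes. The one nearest the gene's 5′ end was taken. None was listed for Peg10 or for the called gene Sgce, so their shared promoter region is not shown. The windows of the called genes Casd1 and Ppp1r9a and of Pon2, which lies on the other strand and whose difference had the opposite sign, are shown for comparison, with GC boxes (GGGCGG, or CCGCCC on the other strand) in capitals. The Casd1 window was chr6:4600661-4600960 on the plus strand, that of Ppp1r9a chr6:4902725-4903024 on the plus strand and that of Pon2 chr6:5298291-5298590 on the minus strand.
Casd1: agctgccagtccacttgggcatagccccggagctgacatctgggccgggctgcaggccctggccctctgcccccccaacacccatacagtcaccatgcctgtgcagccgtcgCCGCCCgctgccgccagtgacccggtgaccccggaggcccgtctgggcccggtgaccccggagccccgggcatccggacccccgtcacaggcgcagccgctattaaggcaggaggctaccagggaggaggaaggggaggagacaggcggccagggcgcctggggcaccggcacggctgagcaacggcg
Ppp1r9a: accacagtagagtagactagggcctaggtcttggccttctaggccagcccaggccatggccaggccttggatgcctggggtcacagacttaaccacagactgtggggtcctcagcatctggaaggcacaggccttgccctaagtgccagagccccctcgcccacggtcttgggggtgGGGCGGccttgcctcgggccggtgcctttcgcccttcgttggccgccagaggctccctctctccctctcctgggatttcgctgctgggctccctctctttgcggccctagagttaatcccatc
Pon2: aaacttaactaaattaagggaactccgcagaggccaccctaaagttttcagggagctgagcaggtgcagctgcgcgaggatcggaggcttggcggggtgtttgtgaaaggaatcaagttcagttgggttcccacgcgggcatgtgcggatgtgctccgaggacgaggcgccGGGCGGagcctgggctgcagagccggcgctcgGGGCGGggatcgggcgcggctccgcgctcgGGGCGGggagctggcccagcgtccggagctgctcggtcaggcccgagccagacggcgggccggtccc
Casd1 held 1 GC box, Ppp1r9a 1 and Pon2 3, and 35.7% of the 32851 windows of this length held at least 1. Each GC box contains a CpG, which was counted among the CpGs too. CpG dinucleotides numbered 23 in Casd1, 10 in Ppp1r9a and 31 in Pon2, against a median of 7 over all windows. The sequence TATAAA (or TTTATA) was in none of the 3 windows, and 13.6% of all windows held it. The sequence CCCTC (or GAGGG) occurred 1 time in Casd1, 4 times in Ppp1r9a and 0 times in Pon2, and was held by 66.0% of all windows. A match of such short letters is a description of the window.

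No correlation among the 3 called genes and Peg10 passed the test from embryo to embryo. With each genotype's mean subtracted, Pearson and Spearman correlations over the 24 embryos were computed for all 45 pairs of the 10 genes and tested by permutation of the embryos within genotype (two-sided, 100000 resamples). For Sgce and Peg10, r was -0.033 (permutation p = 0.876, adjusted p = 0.917) and rho -0.074 (permutation p = 0.738, adjusted p = 0.898), with r = -0.18 within Nipbl+/- embryos and 0.086 within wild type embryos. Without the 2 embryos farthest from the median of Sgce it was 0.075. For Casd1 and Sgce r was -0.0031 (permutation p = 0.989, adjusted p = 0.989) and rho -0.031 (permutation p = 0.887, adjusted p = 0.984), with r = -0.072 without the 2 farthest embryos. For Sgce and Ppp1r9a r was -0.32 (permutation p = 0.124, adjusted p = 0.348) and rho -0.44 (permutation p = 0.0355, adjusted p = 0.228), with r = -0.24 without the 2 farthest.

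**Figure D3:**
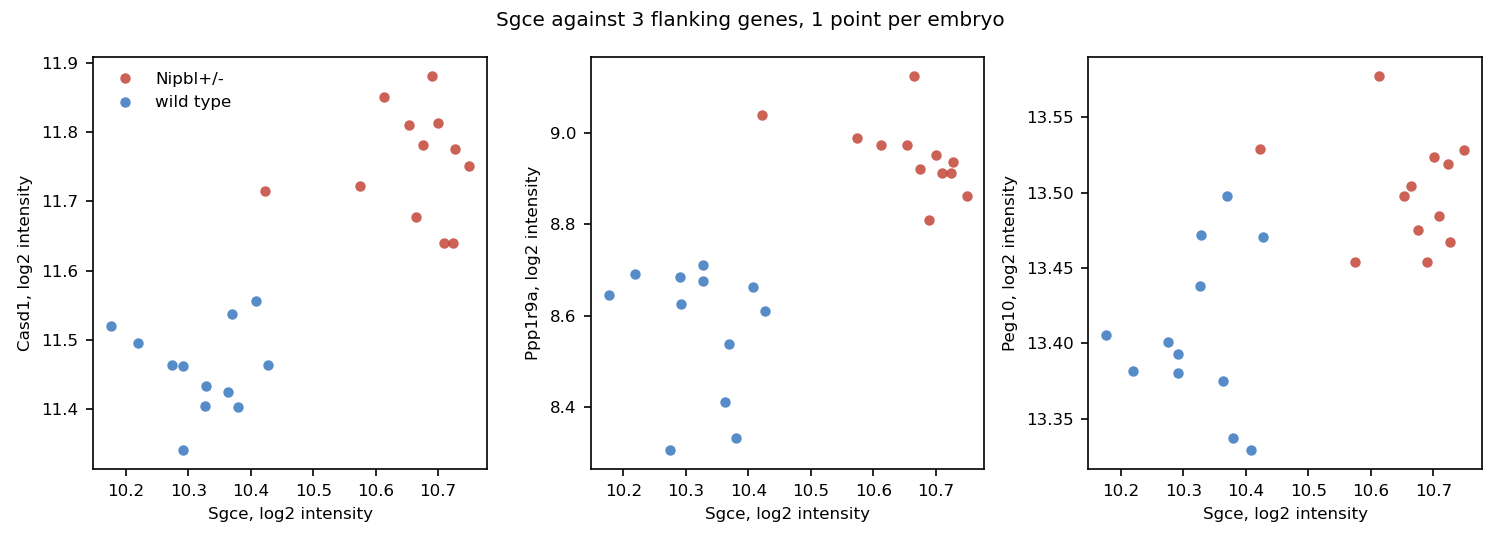
Log2 intensity of Casd1, Ppp1r9a and Peg10 against that of Sgce, with 1 point for each Nipbl+/- (red) and wild type (blue) embryo. The genotypes form separate clouds for Casd1 and Ppp1r9a, and with genotype means subtracted the correlations are -0.0031 for Casd1, -0.32 for Ppp1r9a and -0.033 for Peg10.

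Of the 45 pairs, 1 passed after adjustment by Pearson and 0 by Spearman, and r ran from -0.68 to 0.54. The pair was Calcr and Pon3, with r = -0.68 (permutation p = 5.30e-04, adjusted p = 0.0238) and rho = -0.55 (permutation p = 0.00646, adjusted p = 0.0957). It was -0.41 within Nipbl+/- and -0.90 within wild type embryos, and -0.51 without the 2 embryos farthest from the median of Calcr. Wild type replicate 3 had the highest Calcr and the lowest Pon3 of its genotype. Its array was 1 of 3 with a narrower spread of values than the other 21, and without those 3 arrays r was -0.57.

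**Figure D4:**
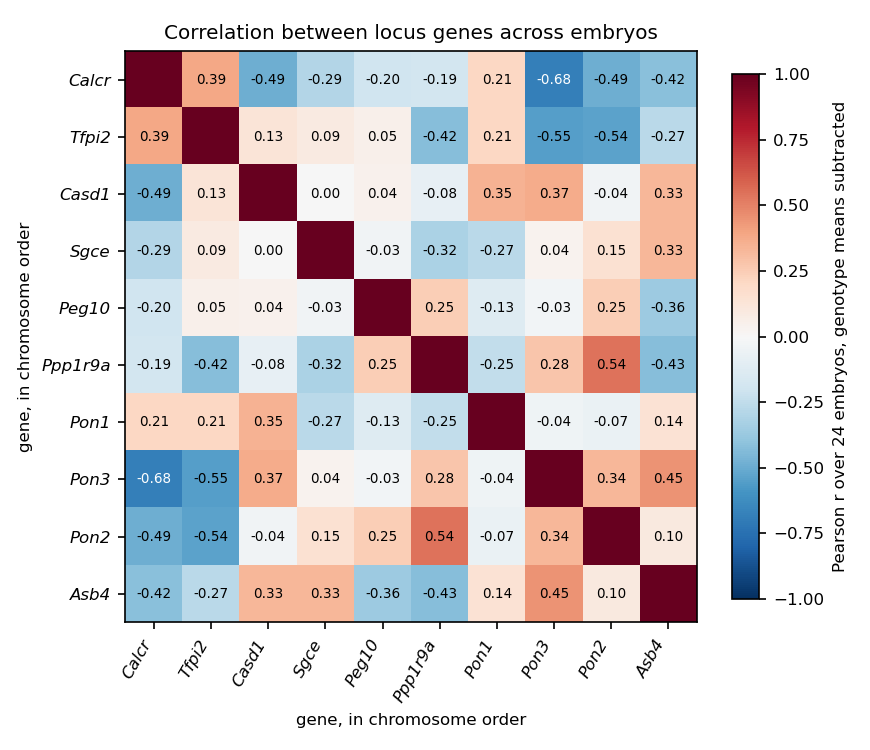
Pearson correlation across 24 embryos, with genotype means subtracted, between each pair of the 10 genes in chromosome order, from blue (-1) to red (1). The values for Casd1 with Sgce and for Sgce with Peg10 are near 0, that for Peg10 with Ppp1r9a is 0.25, and the strongest is -0.68 for Calcr and Pon3.

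The genes outside the locus whose embryo-to-embryo pattern was most like that of Sgce, by Pearson correlation over 24 embryos with genotype means subtracted, among genes above the median mean signal, were Gm4832 (r = 0.73), Anp32-ps (0.73), Rpl32l (0.71), Zfp825 (0.71) and Asnsd1 (0.70). Without the 3 arrays of narrow spread these values were 0.40 to 0.63. For Peg10 they were Plxnd1 (0.78), Polr2a (0.70), Mir697 (0.68), Tsacc (0.68) and Ston1 (0.68), and without those arrays 0.65 to 0.77. For Casd1 they were Golm1 (0.70), Ndufc2 (0.70), Lrp6 (0.70), Laptm4a (0.68) and Mbtd1 (0.65), and 0.65 to 0.79 without those arrays. None of these 15 genes was called between the genotypes by limma, and all points share the arrays and their normalization. Each was picked as a highest value among many genes, so a high r follows partly from the choice. No test was made of these correlations.

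None of the listed genes related to those of the locus by protein complex, origin or pathway was called. Over all genes 0.813% were called, and a count of 0 in this and the following lists lies near that share. An unadjusted p under 0.05 was found for 9.26% of all genes, against which the counts at that level in the following lists are to be read. Of the other genes listed around the dystrophin complex, 13 were measured, with 0 higher and 0 lower by limma and 1 at an unadjusted p under 0.05. Their median log2 difference was 0.0086. The smallest p-values were those of Dysf, which encodes the membrane repair protein dysferlin (log2 difference -0.11, adjusted p = 0.299 from limma), the laminin receptor Dag1 (0.055, adjusted p = 0.597) and Dmd itself (0.064, adjusted p = 0.612). Of 15 other genes derived from gag sequences, relatives of Peg10, 0 were higher and 0 lower by limma and 1 had an unadjusted p under 0.05, with a median of 0.020 and the smallest p-values in Rtl5 (0.11, adjusted p = 0.472 from limma), Rtl9 (0.080, adjusted p = 0.653) and Pnma1 (-0.10, adjusted p = 0.750).

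Of 21 genes of sialic acid metabolism, 0 were higher and 0 lower by limma and 2 had an unadjusted p under 0.05, with a median log2 difference of -0.0056. Siae, the esterase that removes the acetyl group that Casd1 adds, had a log2 difference of 0.15 (adjusted p = 0.483 from limma), and the sialyltransferases St3gal1 and St8sia2 had -0.12 each (adjusted p = 0.443 and 0.580 from limma). Of imprinted genes on other chromosomal domains, 0 of 18 paternally expressed and 0 of 12 maternally expressed genes were called by limma, against 2 and 3 at an unadjusted p under 0.05, with medians of -0.0035 and -0.027. The smallest p-values were those of Plagl1 (-0.13, adjusted p = 0.431 from limma), Nnat (-0.082, adjusted p = 0.477) and Slc38a4 (0.072, adjusted p = 0.592) among the paternally expressed genes. Among the maternally expressed genes they were those of the cell cycle inhibitor Cdkn1c (-0.23, adjusted p = 0.227 from limma), Kcnq1 (0.10, adjusted p = 0.388) and the adaptor Grb10 (-0.058, adjusted p = 0.518).

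Nipbl, the targeted gene, ran from 9.54 to 9.97 in Nipbl+/- and from 10.32 to 10.72 in wild type embryos, without overlap. Within genotypes its correlation with the members was computed for all 10 genes (two-sided permutation within genotype, adjusted over the 10), a comparison added after the data had been seen. It was 0.38 with Casd1 (permutation p = 0.0748, adjusted p = 0.125; rho 0.48, permutation p = 0.0192, adjusted p = 0.0480), 0.21 with Sgce (permutation p = 0.325, adjusted p = 0.407; rho -0.11, permutation p = 0.618, adjusted p = 0.687) and 0.32 with Ppp1r9a (permutation p = 0.141, adjusted p = 0.202; rho 0.40, permutation p = 0.0610, adjusted p = 0.0872). Without the 2 embryos farthest from the median of Nipbl, r was 0.38 with Casd1, -0.20 with Sgce and 0.43 with Ppp1r9a. By both measures Pon3, Calcr and Tfpi2 passed, and Casd1 passed by rho alone. The share of all genes that pass the same test with Nipbl is not given here. These passes therefore cannot be read as particular to the locus. Pon3 had r = 0.62 (permutation p = 9.10e-04, adjusted p = 0.00455; rho 0.66, permutation p = 7.10e-04, adjusted p = 0.00710) and 0.56 without the 2 farthest embryos. Calcr had r = -0.63 (permutation p = 7.10e-04, adjusted p = 0.00455; rho -0.48, permutation p = 0.0177, adjusted p = 0.0480) and Tfpi2 -0.48 (permutation p = 0.0190, adjusted p = 0.0379; rho -0.55, permutation p = 0.00852, adjusted p = 0.0426), and both were -0.36 without the 2 farthest embryos. Pon2 and Asb4 passed by r alone, at 0.61 and 0.56 (adjusted p = 0.00783 and 0.0131, permutation), and had 0.30 and 0.37 without those embryos. Without the 3 arrays of narrow spread r was 0.59 for Pon3, -0.36 for Calcr and -0.41 for Tfpi2. It was then 0.38 for Casd1, -0.22 for Sgce, 0.48 for Ppp1r9a, and 0.36 for both Pon2 and Asb4. Among those arrays, Nipbl+/- replicate 2 and wild type replicate 3 held the lowest Nipbl signal of their genotypes, 9.54 and 10.32. The part of array quality in these correlations was not tested.

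The 3 arrays of narrow spread, Nipbl+/- replicates 2 and 9 and wild type replicate 3, had interquartile ranges of 3.21 to 3.31, against 3.40 to 3.76 in the other 21. Without them Casd1, Sgce and Ppp1r9a had log2 differences of 0.28, 0.36 and 0.37 (adjusted p = 5.38e-05, 1.23e-06 and 1.49e-04 from limma). Limb mesenchyme markers were at high signal in both genotypes, with mean levels of 11.08 to 11.25 in Nipbl+/- and 11.09 to 11.23 in wild type embryos over 6 genes and 0 called. Of the markers of other cells, 1 of 6 ectoderm genes was called, Krt5, with a log2 difference of -0.31 (adjusted p = 0.00171 from limma), while Epcam of the same list had 0.15 (adjusted p = 0.254) and 3 of the 6 were negative. The call among the nerve genes was 1 of 4, Erbb3, higher by 0.25 (adjusted p = 0.0499, and 0.169 with a covariate for embryo sex). Over all genes 0.813% were called by limma in both directions together. Mean levels over the ectoderm list were 8.93 to 9.31 in Nipbl+/- and 9.02 to 9.20 in wild type embryos, and over the nerve list 6.92 to 7.18 in Nipbl+/- and 6.83 to 7.04 in wild type embryos. All 6 macrophage genes were lower in the mutant mean with 0 called, where 9269 of all 19937 genes were higher in the mutant mean. Mean levels over the macrophage list were 6.38 to 6.60 in Nipbl+/- and 6.49 to 6.78 in wild type embryos. No gene was called among 5 muscle precursor, 6 endothelial, 4 erythroid and 6 trunk markers. An unadjusted p under 0.05 by limma was found for 3 macrophage, 2 ectoderm, 1 muscle precursor and 1 nerve gene, against 9.26% of all genes. None of the mesenchyme, endothelial, erythroid or trunk markers reached that level. The part of these cells in the differences of the locus was not tested. With embryo sex as a covariate, the log2 differences of Casd1, Sgce and Ppp1r9a were 0.30, 0.33 and 0.38 (adjusted p = 9.13e-05, 9.13e-05 and 4.15e-04 from limma).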

How the data were processed

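Hindlimb bud RNA of 12 Nipbl+/- and 12 wild type embryos was measured on Affymetrix arrays, 1 for each embryo. GenePattern's Expression File Creator was used by the authors on the scanned arrays, with RMA named in the submitters' processing notes. The deposited values are log2 intensities, corrected for background, normalized between arrays and summarised per probe set. Versions are not given in the sources used here. A change shared by most genes can be hidden by such normalization, and precision is limited by how many arrays there were.

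Of 28159 probe sets, 21640 had 1 gene symbol, 1321 several and 5198 none listed. The probe set with the highest mean over 24 arrays stood for a gene, which gave 19937 genes. Names and chromosome order came from RefSeq (GRCm38.p6), with 21553 probe sets matched by Entrez ID. No 2 arrays were identical. Genotypes came from the labels and were compared, Nipbl+/- minus wild type, with lmFit and eBayes of limma 3.58.1 under R 4.3.3, using Benjamini-Hochberg adjusted p-values over the whole table. A gene was called where this p was under 0.05. Comparative Markers Selection, the module used in the study, was given without its statistic. The fit and the permutations were tested on simulated data.

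The locus genes, the gene lists and the markers were chosen with earlier results of these data known, and Zim1 and Slc38a4 were moved to the list of their expressed parental copy after values were seen. The genes named are the 10 genes of the locus, Nipbl, flanking genes, the genes of each list that passed or the 3 with the smallest p, and for Sgce, Peg10 and Casd1 the 5 most alike genes. Of 21 flanking genes, those with an unadjusted p under 0.05 and Dlx5 and Dlx6 were given values. Correlations and pair differences used 100000 permutations. Alternatives covered the probe set, leaving out dim genes, the variance model, linear values, weighted arrays, the replicate block, a covariate for embryo sex (Xist minus 3 Y-linked genes, as 1 of the 4 intended was not measured by a probe set of its own), the array median and each array left out, and, added after seeing the data, the 3 arrays of narrow spread and the interquartile range of each array. Figures were drawn with matplotlib 3.10.9.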

Additional observations from a re-analysis of the deposited data

How the results depend on the processing

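The calls of Casd1, Sgce and Ppp1r9a were kept in all 11 other settings and with each of the 24 arrays left out. Their log2 differences ran from 0.28 to 0.31, from 0.33 to 0.36 and from 0.37 to 0.39 over the settings, and from 0.29 to 0.31, from 0.32 to 0.36 and from 0.35 to 0.39 with an array left out. The count of called locus genes was 3 with each array left out, 4 with a trended and robust prior variance and with the t statistic on linear values, where Peg10 was added, and 5 with the interquartile range of each array as a covariate, where Peg10 (adjusted p = 0.0417 from limma) and Pon2 (adjusted p = 0.00531) were added. Over all genes, 162 calls became 281 with array weights and 487 with that covariate, and 113 to 197 with 1 array left out. The cause was not tested. Without the dimmest 25% of genes, Calcr and Pon1 were not in the test. No alternative probe set was available for a locus gene. The median difference of the 3 genes imprinted in the embryo lay 0.11 to 0.15 above that of the others with 1 array left out. No difference of the 10 genes changed sign in any setting.

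Same-numbered embryos of the genotypes correlated at -0.35 to 0.28 after subtracting genotype means, 5 of 12 pairs over 0.1, so replicate numbers were not treated as pairs. The labels do not say whether a number marks a litter, so litter could not be entered in a fit. With the replicate block, 3 locus genes were called, as without it, and 169 genes over all. Col1a2 was then called, as given above, and the correlation of Sgce and Peg10 was -0.35 (permutation p = 0.256). That correlation was -0.033 as reported and reached 0.25 with array medians set equal (permutation p = 0.225), and it passed in no setting. Of the 9 pair differences, the unadjusted permutation p of Tfpi2 minus Calcr passed with the sex covariate (p = 0.0288). The call of Erbb3 was lost in 21 of 24 cases with 1 array left out. Small changes of dim genes may be missed at this number of arrays.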
